A study of Sus scrofa with 6 samples.

Results

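The immediate early genes described here are FOS, FOSB, JUN, JUNB, JUND, EGR1, ATF3, IER2, DUSP1 and CREM, 10 of the 20648 genes in the files. They were chosen by name, with earlier results of these data known, and all 10 were found. They were read in 6 single-cell libraries of the ileum of male Large White piglets fed maternal milk, with 1 library each at 0, 1, 3, 7, 14 and 21 days of age. The study's methods give 5 piglets per age, and the animals behind the cells of a library cannot be told apart. No group carried an allele or a treatment, so age was the only difference named in the labels. By the study's methods, the mucosa had been scraped and dissociated with EDTA on ice and then with TrypLE in warmth before the droplets were made. The methods give 1 protocol for all ages, and the handling of each single library is not given. Because each age is 1 library, age and library cannot be told apart, no test was run and no p-value is given. All intervals are 95% intervals that cover counting error only.

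Immediate early genes are transcribed within minutes of a stimulus from factors that are already present in the cell, without new protein synthesis, and their transcripts are short lived. Growth factors, antigen receptors, stretch and cell stress all reach them, mostly through MAP kinases, the serum response factor with its ETS partners and CREB. FOS and JUN proteins pair into the AP-1 transcription factor, EGR1 binds GC-rich promoters, and DUSP1 switches the MAP kinases off again. In the gut they are known in activated lymphocytes and in injured epithelium. They are also known to be induced by tissue dissociation itself.

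The genes lie on 6 chromosomes of Sscrofa11.1 in the RefSeq annotation. EGR1 spans 140440829 to 140445302 on chromosome 2, which also holds JUND (59530991 to 59532846), IER2 (65909638 to 65912491) and JUNB (66214086 to 66219435). On chromosome 6 lie FOSB (51836780 to 51844531) and JUN (153686425 to 153687635). FOS lies on chromosome 7 (98449508 to 98451971), ATF3 on chromosome 9 (130772259 to 130829678), CREM on chromosome 10 (57829523 to 57895610) and DUSP1 on chromosome 16 (51457924 to 51461095). No other annotated gene overlapped any of them. The counts come from transcript ends, so levels are compared between ages and cells for 1 gene, and not between genes.

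Barcodes with at least 1000 UMIs (counted transcript molecules) and 500 genes were kept, 76099 in all and 10836 to 15956 per library, with medians of 3693 to 4560 UMIs. The 4 lineages were set by marker sums. B barcodes held at least 2 UMIs of MS4A1, PAX5 and POU2AF1, and T barcodes at least 2 of CD3E and CD3G. Epithelial barcodes held at least 5 of EPCAM, KRT8 and VIL1, and stromal barcodes at least 5 of COL3A1. B barcodes numbered 2434, 3600, 8105, 10445, 14823 and 13129 from day 0 to day 21, and T barcodes 2002, 1764, 423, 593, 522 and 311. Epithelial barcodes numbered 2976, 1114, 103 and 256 up to day 7, and stromal barcodes 290, 373 and 206 up to day 3. Later days had fewer than 50 of either and are not compared. Markers outside the rules were highest in the lineage they name on day 0. CD22, CD79B and BANK1 summed to 8.32 per 10000 UMIs in B barcodes against 0.236 in epithelial barcodes. CD2, CD5, CD3D and LCK summed to 2.33 in T against 0.388 in B barcodes, and 5 stromal genes to 58.5 in stromal against 0.429 in B barcodes. Epithelial genes separated least, with 4 of them at 19.1 in epithelial against 4.56, 4.97 and 4.55 in B, T and stromal barcodes.

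A barcode that met 2 rules counted in both lineages. There were 1167 of these, 1.53% of all, and they were deep, with a median of 10536 UMIs on day 0. Their weight in the summed levels was therefore larger than their number. On day 0 there were 385 of them, with 6895199 of the 75033518 UMIs of all barcodes kept. The levels without them are given where they turn the highest day or a count past 2-fold, and for some other orders and steps. Pairs of libraries shared 31 to 68 barcode sequences, where 18.1 to 32.5 would fall together from the lengths of the lists alone. The median mitochondrial share of B barcodes was 6.38, 4.98, 5.95, 5.51, 4.65 and 6.26% from day 0 to day 21. That of epithelial barcodes was 7.72, 9.32, 10.6 and 12.4% up to day 7, higher at each age, and its part in the epithelial levels was not tested.

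The 10 genes together were highest on day 0 in B, T and epithelial barcodes and on day 1 in stromal barcodes, and lower on the last day compared in all 4. In B barcodes they made up 73.9 of every 10000 UMIs on day 0, then 54.1, 33.4, 49.9 and 25.2 at the ages of 1, 3, 7 and 14 days and 13.1 on day 21. In T barcodes the levels were 84.7, 62.7, 21.4, 44.9, 53.9 and 28.2. Epithelial barcodes gave 81.8, 63.8, 38.9 and 49.9 on days 0 to 7, and stromal barcodes 54.4, 81.0 and 14.3 on days 0 to 3. The course was thus not a steady decline. T, epithelial and stromal barcodes were lowest on day 3 among the days compared. B, T and epithelial barcodes all stood higher on day 7 than on day 3. Without the barcodes of more than 1 lineage, T barcodes stood at 86.6, 63.4, 21.1, 46.8, 65.4 and 36.7 and stromal barcodes at 46.9, 84.1 and 10.4. RNA of the haemoglobin gene HBB differed between libraries with no order by age, at 0.0362, 0.794, 0.0508, 3.07, 0.0892 and 11.8 per 10000 in B barcodes from day 0 to day 21, and its part in these levels was not tested.

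**Figure D1:**
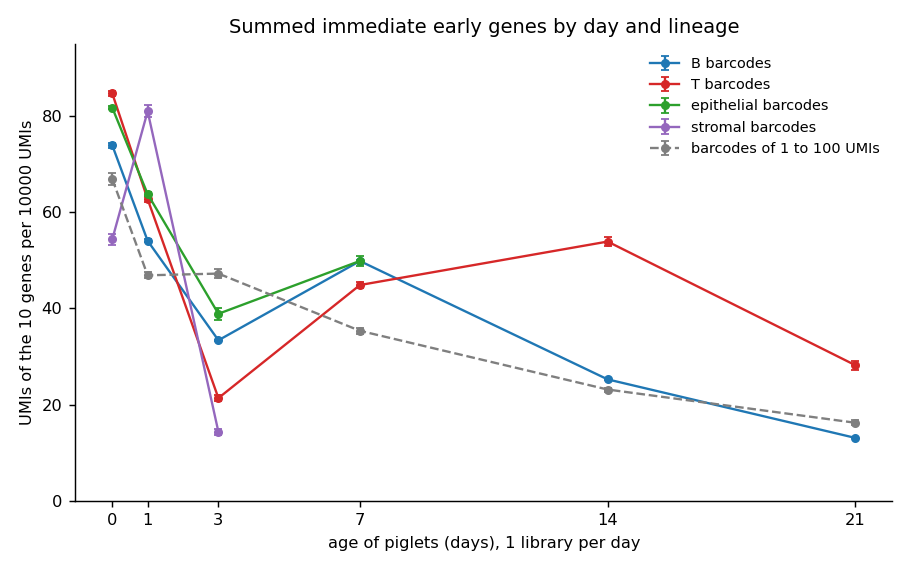
UMIs of the 10 immediate early genes per 10000 UMIs (y axis) against age in days (x axis), as sums over the barcodes of each lineage with at least 50 barcodes and over barcodes of 1 to 100 UMIs. Bars are 95% Poisson intervals, and each point is 1 library. Levels are high on days 0 and 1, drop on day 3 and stand higher on day 7 in B, T and epithelial barcodes, with T barcodes at 53.9 and B barcodes at 25.2 on day 14.

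The steps between successive libraries are set beside the share of all genes with at least 50 UMIs whose interval left out no change in the same direction. Genes with many UMIs have narrower intervals, and these shares were not matched for the number of UMIs. The counts of members are therefore a description, and whether they exceed those of equally abundant genes was not tested. From day 0 to day 1, the interval lay below no change for 9 of 10 members in B (29.9% of all genes), 8 in T (36.1%) and 8 in epithelial barcodes (27.8%). In stromal barcodes it lay above no change for 7 members (19.9%) and below for none. From day 1 to day 3 it lay below for 10 members in B (26.6%), 9 in T (18.4%), 9 in epithelial (21.2%) and 10 in stromal barcodes (14.2%). From day 3 to day 7 it lay above for 7 members in B (43.5%) and 7 in T barcodes (30.5%), whereas it lay below for FOSB (-0.44) and CREM (-0.36) in B and for EGR1 (-0.52) in T barcodes, as log2 ratios. In epithelial barcodes the members parted over this interval, with DUSP1 3.85-fold, JUN 1.65-fold and JUND 1.41-fold higher on day 7 and log2 ratios of -1.03 for EGR1, -0.70 for ATF3 and -0.27 for FOSB. The share of all genes was not counted for that epithelial step. From day 7 to day 14 the lineages parted, with 9 members lower in B (34.5%) and 6 higher in T barcodes (17.7%), where FOSB (-0.37) and IER2 (-0.67) were lower. In T barcodes that met no other rule, FOSB stood at 1.283 on day 7 and 1.153 on day 14. IER2 stood there at 0.7934 and 0.6102 and CREM at 1.233 and 1.258, and the level intervals of all 3 overlapped. Those of JUND, at 11.25 and 12.39, and EGR1, at 0.9702 and 1.339, did not overlap. From day 14 to day 21, 7 members were lower in B (31.6%) and 7 in T barcodes (14.2%), where IER2 (0.52) was higher. With so many UMIs these intervals are narrow, and they hold nothing of the spread between animals or preparations. Without the barcodes of more than 1 lineage, stromal FOSB stood at 2.769 on day 0 and 4.274 on day 1. Stromal DUSP1 then stood at 3.337 and 4.274. The level intervals of these 2 genes did not overlap between the days, whereas those of stromal CREM, at 0.2583 and 0.3041, did. The step counts were not redone without these barcodes.

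FOS and FOSB are the partners that need a JUN protein to bind DNA. FOS in B barcodes stood at 7.69, 3.70, 2.47, 5.09, 1.53 and 0.830 UMIs per 10000 from day 0 to day 21. The level of day 7 was thus above those of days 1 and 3. In T barcodes FOS stood at 9.19, 5.05, 1.43, 4.30, 5.04 and 3.35, so it was nearly as high on day 14 as on day 1. Without the shared barcodes it was higher on day 14, at 6.54 against 5.33. FOSB had no second peak. It stood at 6.31, 2.77, 1.89, 1.40, 0.336 and 0.354 in B barcodes and at 6.96, 2.47, 1.27, 1.302, 1.01 and 0.952 in T barcodes, and was low from day 3 on.

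JUN, JUNB and JUND are the Jun proteins, of which JUND is the one known to be present in resting cells. JUN in B barcodes stood at 14.2, 8.29, 6.43, 13.5, 8.03 and 2.78 UMIs per 10000 from day 0 to day 21. Without the barcodes that also met another rule, its day 0 level was 10.5, below the 13.4 of day 7. In T barcodes JUN stood at 24.1, 16.6, 5.22, 15.6, 21.3 and 9.81, with the day 14 level (20.8 to 21.8) below only that of day 0 (23.8 to 24.4). Without the shared barcodes the order was turned, with 27.3 (26.5 to 28.2) on day 14 and 24.1 (23.8 to 24.5) on day 0. JUNB in B barcodes stood at 9.97 and 9.40 on days 0 and 1 and then at 3.68, 3.83, 1.52 and 1.18, with hardly a second peak. In T barcodes JUNB stood at 12.9, 11.4, 2.86, 5.04, 5.54 and 3.16. JUND did peak again in B barcodes, with 17.5, 14.7, 9.50, 15.7, 7.89 and 4.32.

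ATF3, a stress-responsive repressor of the ATF/CREB family, stood at 4.34, 3.47, 2.47, 2.47, 1.58 and 0.674 UMIs per 10000 in B barcodes. It had no second peak there, whereas in T barcodes it stood at 0.797, 2.87 and 0.630 at 3, 14 and 21 days of age. CREM, which encodes activators and repressors that bind cAMP response elements, was the only member whose highest level in B barcodes fell on day 1. Its B levels were 3.25, 4.78, 1.86, 1.44, 1.48 and 1.35, nearly flat from day 7 on. CREM was scarce outside lymphocytes, at 0.341 to 0.430 in epithelial barcodes of days 0 to 7 and 0.351 to 0.641 in stromal barcodes. Without shared barcodes these were lower, at 0.180 to 0.362 and 0.2499 to 0.304. Barcodes with 1 to 100 UMIs held CREM at 0.990 to 1.37. B genes in epithelial barcodes put 25.1, 18.5, 34.7 and 51.2% of their CREM on days 0, 1, 3 and 7 at RNA from outside. Epithelial genes put 22.0, 4.89 and 9.56% of stromal CREM there on days 0, 1 and 3, the last on 1 marker UMI in stromal barcodes. Such shares take every UMI of the marker genes in these barcodes as RNA from outside, which was not tested. On day 3, CD22, CD79B and BANK1 summed to 7.87 per 10000 in sparse and 1.41 in stromal barcodes. The share that B genes would give in stromal barcodes was not tested.

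EGR1, a zinc-finger activator, stood at 7.92, 6.48, 5.03 and 2.47 UMIs per 10000 in epithelial barcodes on days 0, 1, 3 and 7. It reached 11.3 in stromal barcodes on day 1, from 5.58 on day 0 and against 1.17 on day 3. In B barcodes it stood at 3.19, 1.76, 1.16, 1.35, 0.435 and 0.456. The first of these rests on shared barcodes, since B barcodes that met no other rule had 1.71 on day 0. Taking every epithelial marker UMI in B barcodes as RNA from outside put 42.1 and 48.9% of the level there on days 3 and 21. This rested on 64 and 50 such UMIs in sparse barcodes. It left 0.731 and 0.275 and made day 21 the lowest. IER2, whose product is a small nuclear protein, was at 1.55, 1.32, 0.951, 1.18, 0.434 and 0.456 in B barcodes. DUSP1, the phosphatase of the set, stood at 5.90, 3.89, 2.97, 3.92, 2.02 and 0.682 in B barcodes. In epithelial barcodes the summed level of DUSP1 was 6.59, 4.29, 1.71 and 6.56 on days 0 to 7. As a mean over barcodes taken at 1000 UMIs each, DUSP1 was lower on day 7, at 0.619 UMIs against 0.911 on day 0.

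**Figure D2:**
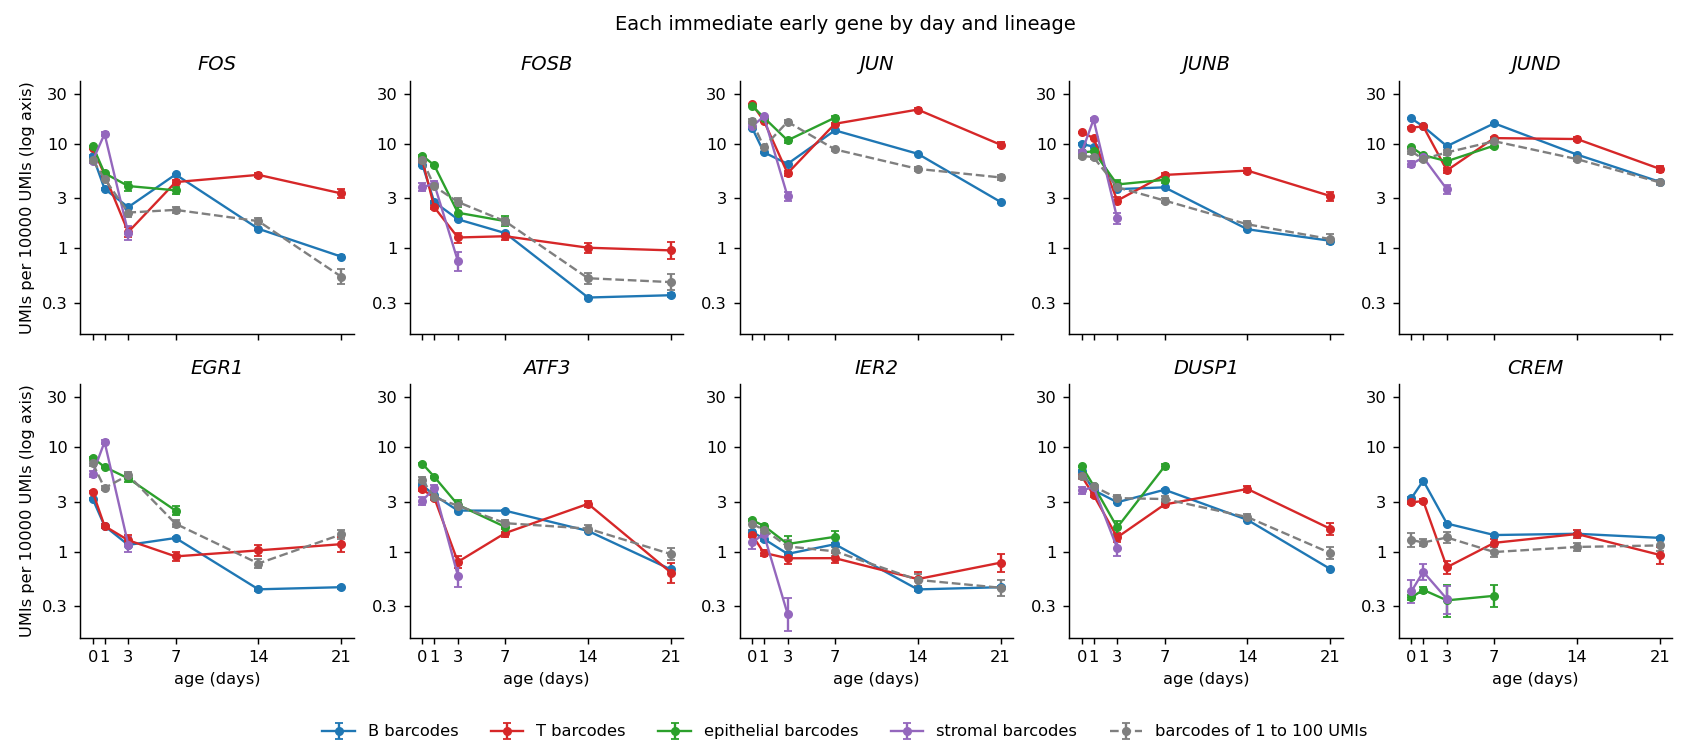
UMIs per 10000 UMIs of each gene (y axis, log scale) against age in days (x axis), 1 panel per gene, for the lineages with at least 50 barcodes and for barcodes of 1 to 100 UMIs (dashed). Bars are 95% Poisson intervals. JUN and FOS in T barcodes are higher on day 14 than on day 3, FOSB is low from day 3 on, and CREM in epithelial barcodes (0.341 to 0.430) lies below the dashed line.

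The order of the days was shared by most members. Day 0 was the highest day for 9 of 10 members in B and for 8 in T barcodes, CREM being the exception in both and JUND also in T. It was the highest for 7 of 10 in epithelial barcodes, with CREM and JUNB highest on day 1 and JUND on day 7. In stromal barcodes all 10 were highest on day 1 and lowest on day 3. Without the shared barcodes, day 0 was the highest for 8 members in B, 8 in T and 8 in epithelial barcodes. JUN was then highest on day 7 in B and on day 14 in T barcodes, ATF3 on day 14 in T barcodes, at 3.71 against 3.14 on day 0, and CREM and JUND in T and JUND in epithelial barcodes on day 0. In T barcodes the lowest day was day 3 for 6 members. Several neighbours in these orders had overlapping intervals: days 14 and 21 for EGR1, FOSB and IER2 in B barcodes, days 0 and 1 for CREM and JUND in T barcodes, and days 0 and 7 for DUSP1 and JUND in epithelial barcodes.

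On day 21 all 10 members were at least 2-fold lower than on day 0 in B barcodes, where 20.4% of the 12090 genes with at least 50 UMIs were that much lower and 21.7% that much higher. The summed level was 5.65-fold lower, a log2 ratio of -2.50 (-2.51 to -2.49). FOSB differed most, by a log2 ratio of -4.16 (-4.23 to -4.09), or 17.8-fold. FOS was 9.27-fold, DUSP1 8.65-fold and JUNB 8.46-fold lower, and CREM least, 2.40-fold. The median gene in this comparison had a log2 ratio of 0.31 and the median member -2.75. EGR1 and JUN, 7.00-fold and 5.13-fold lower, had log2 ratios of -1.92 and -1.93 without the shared barcodes, and -2.81 and -2.36 with them.

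In T barcodes 9 of 10 members were at least 2-fold lower on day 21, against 16.9% of 10055 genes lower and 17.5% higher. The summed level was 3.00-fold lower (log2 ratio -1.59, -1.64 to -1.54). FOSB was 7.31-fold and ATF3 6.27-fold lower, and IER2, 1.85-fold lower, did not reach 2-fold. The NK and ILC genes KLRB1 and IL22 in T barcodes summed to 0.243, 0.307, 0.631, 1.06, 2.18 and 0.194 per 10000 from day 0 to day 21, highest on day 14, and their part in the T levels was not tested. T barcodes of the later days also carried B cell genes, since MS4A1, PAX5 and POU2AF1 summed to 7.92 per 10000 in them on day 21 against 0.497 on day 0. Epithelial genes moved the other way. EPCAM, KRT8 and VIL1 summed to 7.23 per 10000 in T and 6.54 in B barcodes on day 0 and to 0.00807 and 0.00843 on day 21, and 4 enteroendocrine genes to 6.17 and 3.52 on day 0 and to 0.00807 and 0.0159 on day 21. Their part in the member levels was not tested beyond leaving out shared barcodes and, for B barcodes, subtracting free RNA. Without the barcodes of more than 1 lineage, which left 205 of 311, the T level on day 21 was 36.7 in place of 28.2 and the log2 ratio -1.24. The number of members at least 2-fold lower was then 7, without JUN, EGR1 and IER2.

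Epithelial and stromal barcodes could be compared only over the first week. In epithelial barcodes 4 of 10 members, FOSB, ATF3, EGR1 and FOS, were at least 2-fold lower on day 7 than on day 0, where 9.3% of 12465 genes were lower and 16.7% higher. They were 4.24-fold, 4.03-fold, 3.20-fold and 2.66-fold lower, whereas the intervals of JUND, DUSP1 and CREM included no change. In stromal barcodes 8 of 10 members were at least 2-fold lower on day 3, where 5.31% of 7011 genes were lower and 7.89% higher. The summed level was 3.80-fold lower there, and the members outside the 8 were JUND (log2 ratio -0.80, -0.97 to -0.64) and CREM (-0.24, -0.84 to 0.34).

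**Figure D3:**
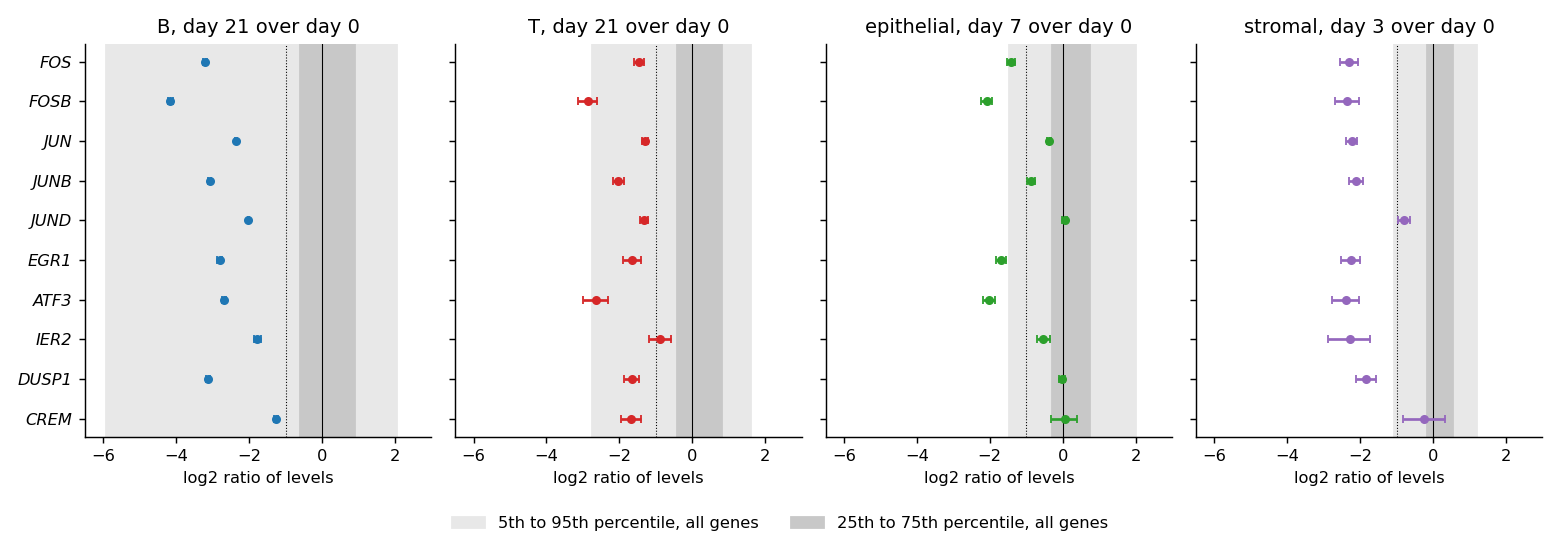
Log2 ratio of the level on the last day with at least 50 barcodes over that on day 0 (x axis) for each of the 10 genes (y axis) in B, T, epithelial and stromal barcodes. Points carry 95% counting intervals, grey bands show the spread of all genes with at least 50 UMIs, and the dotted line marks 2-fold lower. In B barcodes the genes run from -4.16 for FOSB to -1.26 for CREM, all within the light band, and in stromal barcodes 8 lie left of it.

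The lineages were compared on day 0, when all 4 were well represented. No member differed 2-fold between T and B barcodes, where 4.31% of genes were lower and 5.91% higher in T. JUN came nearest, 1.69-fold higher in T, and was the only member past 2-fold, with a log2 ratio of 1.21, once shared barcodes were left out. Between epithelial and B barcodes, CREM was 8.93-fold lower and EGR1 2.48-fold higher in epithelial barcodes, where 11.2% of genes were lower and 26.6% higher. Without shared barcodes the EGR1 log2 ratio was 2.24 in place of 1.31, and JUN (1.14) and JUND (-1.13) also passed 2-fold. Between stromal and B barcodes, CREM was 7.82-fold and JUND 2.74-fold lower in stromal barcodes and no member was 2-fold higher, where 8.47% of genes were lower and 21.5% higher. Without shared barcodes FOSB (-1.02) was also lower and EGR1 (1.52) higher, and the log2 ratio of CREM went from -2.97 to -3.97 in stromal and from -3.16 to -3.86 in epithelial barcodes.

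The make-up of the B barcodes differed between days, so they were split by genes that the lineage rule did not use. CCR7, a homing receptor of lymphocytes, marked 1059 B barcodes without MKI67 or TOP2A on day 0, which were 43.5% of all B barcodes, and 193 or 1.47% on day 21. MKI67 and TOP2A are genes of dividing cells. At least 2 of their UMIs were found in 101 B barcodes on day 0, or 4.15%, in 6557 on day 14, or 44.2%, and in 3575 on day 21, or 27.2%. The 10 genes summed to 81.5, 56.1, 53.6, 94.4, 69.9 and 35.5 per 10000 in the CCR7 barcodes from day 0 to day 21. They summed to 50.1, 42.1, 24.0, 25.3, 19.3 and 10.3 in the MKI67 and TOP2A barcodes.

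The distance between day 0 and day 21 was thus smaller within CCR7 barcodes than over all B barcodes. The summed level on day 21 was 2.30-fold below that of day 0 in CCR7 barcodes and 4.85-fold in those with MKI67 and TOP2A, against 5.65-fold in all B barcodes. Within CCR7 barcodes 8 of 10 members were at least 2-fold lower, where 14.1% of 7718 genes were. FOS was just past 2-fold, with a log2 ratio of -1.07 (-1.23 to -0.92), and IER2 (-0.75) and JUN (-0.71) did not reach it. The peak of day 7 was also higher within them, with 94.4 against 53.6 on day 3 and 81.5 on day 0. Of the CCR7 barcodes of day 0, 115 also met the rule of another lineage, as did 21 of the 101 MKI67 and TOP2A barcodes. The part of these in the ratios was not tested. Within MKI67 and TOP2A barcodes 9 of 10 members were at least 2-fold lower on day 21, where 15.8% of 10177 genes were, and CREM (-0.56) was not.

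CCR7 barcodes held more of the members than MKI67 and TOP2A barcodes at every age, and the ratio was larger from day 7 on. The ratio of the summed levels was 1.63, 1.33, 2.24, 3.73, 3.63 and 3.44 from day 0 to day 21. On day 7, 9 of 10 members were at least 2-fold higher in CCR7 barcodes, where 7.32% of 9783 genes were. FOS stood at 13.1 against 1.66 per 10000, 7.90-fold higher, and EGR1 was 5.43-fold and JUNB 4.69-fold higher. FOSB stood at 3.48 against 0.581. CREM was the exception, at 1.55 against 1.22, a log2 ratio of 0.34 (0.22 to 0.46). On day 0, 4 members, FOS, JUND, JUNB and CREM, were at least 2-fold higher in CCR7 barcodes, where 7.51% of 8527 genes were, and EGR1 was 1.62-fold lower. Of the 101 MKI67 and TOP2A barcodes of that day, 21 also met another rule, and the part of these in the EGR1 value was not tested. Median depth was lower in the CCR7 barcodes, at 3833 against 7549.5 UMIs on day 7.

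The epithelial barcodes were mixed as well. On day 0, 621 of them held at least 5 UMIs of CHGA and CHGB, the granins of enteroendocrine cells, which make gut hormones. In these the 10 genes summed to 169.2 per 10000 UMIs, against 60.0 in 849 barcodes with FABP2 and APOA4, genes of absorptive enterocytes, and 47.7 in 298 barcodes with OLFM4, a crypt gene. In granin barcodes 7 of 10 members were at least 2-fold higher than in the FABP2 and APOA4 barcodes, where 22.0% of 11317 genes were. FOS was 6.22-fold higher, at 32.0 against 5.14, and ATF3 4.98-fold, at 20.6 against 4.13. DUSP1 (1.57-fold), JUN (1.83-fold) and IER2 (1.85-fold) stayed under 2-fold. Granin barcodes were shallower, with a median of 4603 UMIs against 18579, and on day 1 they again had the higher level, 143.2 against 58.8.

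Granin barcodes were 20.9, 9.87, 35.0 and 3.52% of the epithelial barcodes on days 0, 1, 3 and 7. On day 3 they were 36 of 103, too few for a level to be given. These are shares of barcodes and not of UMIs, and their part in the epithelial levels was not tested. Within the FABP2 and APOA4 barcodes, 849 on day 0 and 70 on day 7, the summed level was nearly level, at 60.0, 58.8 and 57.3 on days 0, 1 and 7. The members inside that sum still parted. FOSB (log2 ratio -1.35), EGR1 (-1.31) and ATF3 (-1.25) were at least 2-fold lower on day 7, where 10.8% of 10312 genes were. DUSP1 was 1.54-fold and JUND 1.40-fold higher. No day 3 barcode met the rule for the FABP2 and APOA4 set, so the low epithelial level of day 3 has no counterpart there.

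**Figure D4:**
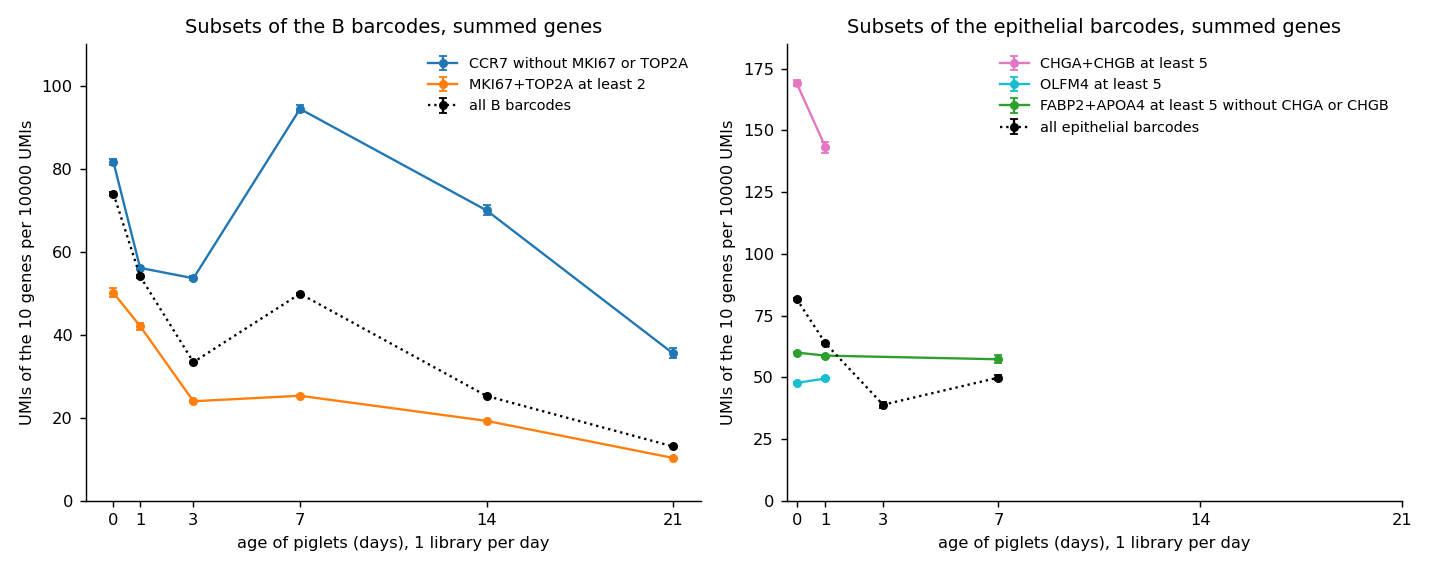
UMIs of the 10 immediate early genes per 10000 UMIs (y axes) against age in days (x axes) in gene-defined subsets of the B barcodes (left) and the epithelial barcodes (right), with all barcodes of the lineage dotted. Bars are 95% Poisson intervals, and only sets of at least 50 barcodes are drawn. CCR7 barcodes reach 94.4 on day 7 where MKI67 and TOP2A barcodes stand at 25.3, and granin barcodes reach 169.2 on day 0.

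T and stromal barcodes had a like course in their subsets. T barcodes with CD4, of helper cells, stood at 86.0, 61.3, 23.3, 37.6, 71.4 and 38.4 for the summed members, on 124, 234, 87, 139, 67 and 50 barcodes. Those with CD8A or CD8B, of cytotoxic cells, stood at 77.8, 53.7, 20, 35.9, 55.3 and 20.1. In both, day 3 was low and day 14 above day 7. On day 21, 7 of 10 members in CD4 and 9 of 10 in CD8 barcodes were at least 2-fold below day 0, where 8.89% of 2172 and 11.1% of 5083 genes were. Of these barcodes, 21 of 50 with CD4 and 33 of 106 with CD8A or CD8B also met another rule on day 21, and 29 of 67 with CD4 on day 14. Without such barcodes the CD8 set stood at 60.4 on day 14 and 21.9 on day 21, and the CD4 set, then 38 and 29 barcodes, at 93.3 (88.6 to 98.2) and 45.1. The order of the CD4 set was then turned, since its day 0 level was 84.2 (81.6 to 87.0), below that of day 14. Stromal barcodes with PDGFRA, a receptor of fibroblasts, stood at 52.4, 84.0 and 13.7 on days 0, 1 and 3. Over all stromal barcodes JUNB went from 8.32 on day 0 to 17.1 on day 1, EGR1 from 5.58 to 11.3 and FOS from 6.91 to 12.5. On days 0, 1 and 3, endothelial genes in them summed to 0.0791, 1.03 and 0.0898, and KLRB1 and IL22 to 0.158, 0.788 and 0.220. EPCAM, KRT8 and VIL1 summed to 6.89, 1.05 and 0.0327, and the median mitochondrial share was 6.33, 3.83 and 5.54%. Their part in the stromal levels was not tested.

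The share of barcodes that held a member was also read. Shares depend on depth, so each barcode was taken at 1000 UMIs. At that depth 96.7% of B barcodes on day 0 held a UMI of at least 1 member, and 97.3, 82.1, 89.6, 77.5 and 60.2% did on days 1 to 21. Without that step the share was 99.4% on day 0 and 89.8% (89.3 to 90.3%) on day 21. FOS was found in 47.5% of B barcodes on day 0 and 6.54% on day 21, FOSB in 41.3 and 3.35%, and JUND in 79.5 and 32.7%. In T barcodes the share with any member was 95.2, 68.0, 84.3 and 67.0% at 0, 3, 14 and 21 days of age. Shares and levels did not always have the same order, since the B share was slightly higher on day 1 than on day 0 and the T share slightly lower on day 21 than on day 3. In stromal barcodes it was 78.5, 93.9 and 55.3% on days 0, 1 and 3. No lineage here should lack these genes, so no background share from a lineage can be given. B barcodes had medians of 3532 to 4725 UMIs before that step.

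**Figure D5:**
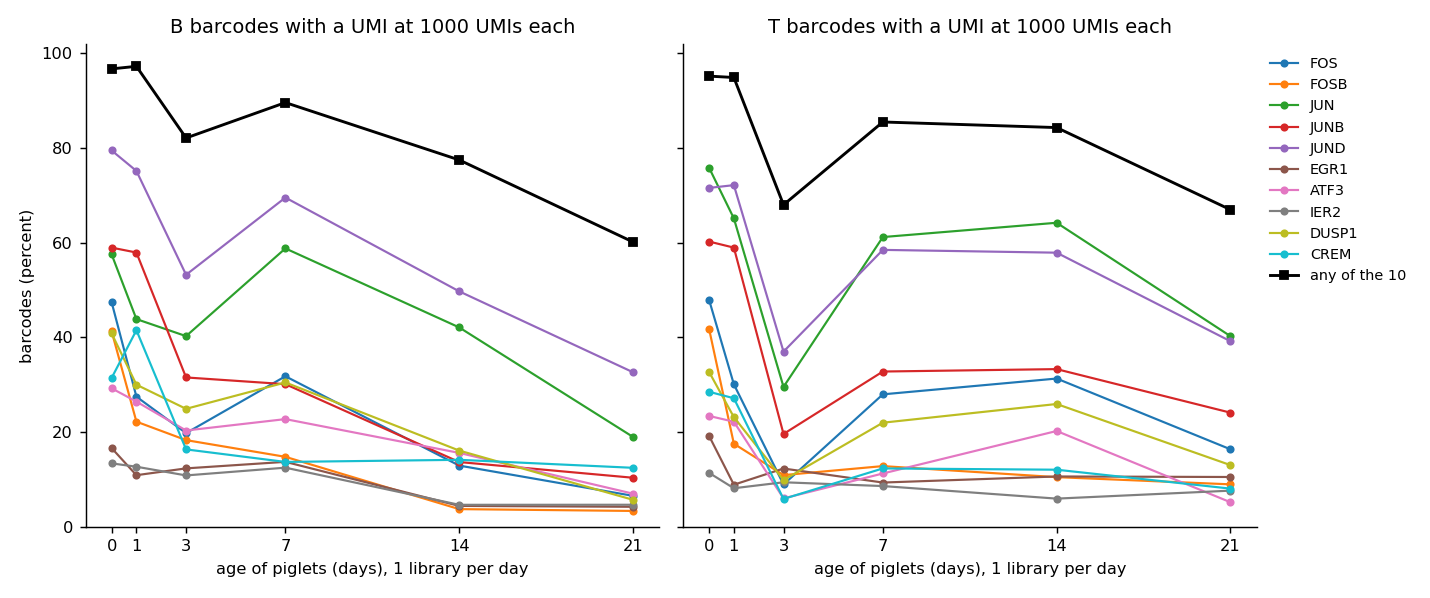
Percent of B (left) and T (right) barcodes with at least 1 UMI of each gene, and of any of the 10 (black squares), expected at 1000 UMIs per barcode (y axis), against age in days (x axis). Each point is 1 library. JUND is found in 79.5% of B barcodes on day 0 and 32.7% on day 21, and FOSB in 41.3 and 3.35%.

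Across barcodes of 1 library and lineage, log levels of members correlated in pairs, with a median r over 45 pairs of 0.693 in 2976 epithelial barcodes and 0.249 in 2434 B barcodes on day 0. The closest pairs were FOS and ATF3 in epithelial (0.811) and FOS and FOSB in B barcodes (0.445). On days 3, 7 and 14 it was JUN and JUND in B barcodes, with 0.602, 0.646 and 0.584. Pairs with CREM were the lowest in most groups, such as EGR1 with CREM in B barcodes of day 0 (-0.086). Barcodes of a group share a library and differ in depth and subset, and these values are descriptions.

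Barcodes with 1 to 100 UMIs were taken to stand for RNA outside cells, which was not tested. They numbered 1033288 to 1459372 per library and held 1460139 UMIs in all on day 0. Those of at most 50 UMIs held 1541881 of the 4700459 UMIs on day 1, 3417736 of 3503864 on day 7 and 2452486 of 4929719 on day 14. The make-up of this set thus differed between libraries. The 10 genes stood in it at 66.9, 46.9, 47.2, 35.4, 23.1 and 16.2 per 10000 UMIs from day 0 to day 21. The sparse barcodes were thus above the B level on days 3 (33.4) and 21 (13.1) and below it on the other days, such as day 14 (25.2). On day 3 they also stood above the T, epithelial and stromal levels given above, and on day 0 above the stromal level. In the other comparisons with these lineages they stood below. They had no peak on day 7. On day 3 their JUN level was 16.3 (15.7 to 16.85) and their EGR1 level 5.41, above the 6.43 and 1.16 of B barcodes. In B barcodes that did not meet the epithelial rule, every UMI of the epithelial marker genes was taken as coming from outside. This put 4.76% of the UMIs on day 0 and 15.3% on day 21 at RNA from outside. The latter came from only 50 marker UMIs in the sparse barcodes. With that share subtracted, the log2 ratio of the summed members on day 21 over day 0 was -2.53. In T barcodes of days 3 and 21 the same sum gave 68.9 and 51.2%, on 59 and 12 marker UMIs. With these shares subtracted the summed members stood at -36.4 and 40.8 per 10000. A negative level is not possible, so the subtraction was not used for T barcodes. Whether it holds for B barcodes was not tested.

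Other genes of the same response were read from 5 lists, which were not redone without the barcodes of more than 1 lineage. Of 25 other primary response genes, 22 were at least 2-fold lower in B barcodes on day 21 than on day 0 and none higher, with a median log2 ratio of -2.37 against 0.31 over all genes. In T barcodes 16 of 25 were lower, where 16.9% of all genes were, and in B barcodes the share of all genes was 20.4%. In B barcodes KLF2, a quiescence and homing factor of lymphocytes, stood at 9.13 on day 0 and 0.311 on day 21, and NR4A2, a nuclear receptor induced by antigen, at 2.97 and 0.113. MYC stood at 2.24 and 0.219, and ZFP36, which degrades AU-rich mRNAs, at 4.51 and 0.546. The genes outside the 22 were MCL1, ZFP36L1 and EGR3, with log2 ratios of -0.24, -0.90 and -0.83. Within CCR7 barcodes of the B lineage 14 of 24 were at least 2-fold lower (14.1% of all genes), and within MKI67 and TOP2A barcodes 17 of 22 (15.8%).

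Of 12 kinases and factors upstream, among them MAPK3, SRF and MEF2C, none was 2-fold lower in B barcodes on day 21 and 1, the SRF partner ELK4, was higher, at 2.21 against 0.524 per 10000. In T barcodes none was lower and 3 were higher, ELK4, MEF2C and RPS6KA1. The B cell genes MS4A1, PAX5 and POU2AF1 summed to 0.497 in T barcodes on day 0 and 7.92 on day 21. The part of B cell RNA or shared barcodes in these 3 T values was not tested. Within CCR7 barcodes of the B lineage 1 of 11 was lower (14.1% of all genes) and 1 higher. Within MKI67 and TOP2A barcodes 1 of 12 was lower (15.8%) and 3 were higher. The share of all genes that were higher was not counted in these subsets. Of all genes, 21.7% in B and 17.5% in T barcodes were higher, so these counts are no more than a description of the list. The phosphatases and feedback inhibitors, which act after them, were lower for 6 of 8 in B barcodes, where 20.4% of all genes were. DUSP5, which acts on ERK, stood at 2.63 and 0.0846. SPRY1 and SPRY2, inhibitors of receptor signalling, stood at 0.136 and 0.128 per 10000 on day 0. They were near 0 on day 21, with counts of 26 and 23 among 61675161 UMIs. DUSP10 was 2.05-fold higher and DUSP6 1.75-fold. In T barcodes 4 of 8 were lower (16.9% of all genes). Of those with enough UMIs, 3 of 6 were lower within CCR7 barcodes (14.1%) and 3 of 5 within MKI67 and TOP2A barcodes (15.8%).

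The other AP-1 and ATF/CREB factors were divided. In B barcodes 4 of 9 with enough UMIs were at least 2-fold lower on day 21, where 20.4% of all genes were, among them MAFF, from 0.570 to 0.0174, and FOSL2, from 0.684 to 0.0344. BATF, an AP-1 factor needed for class switching and for helper T cells, was 3.02-fold higher in B and 6.45-fold higher in T barcodes. Of 6 heat shock genes, which also respond to stress, 1 was 2-fold lower in each lineage, near the 20.4 and 16.9% of all genes. This was DNAJB1 in both, 3.22-fold lower in B and 2.16-fold lower in T barcodes, whereas HSP90AA1 had log2 ratios of -0.15 and -0.08. In epithelial barcodes of day 7, 11 of 25 primary response genes and none of 6 heat shock genes were lower, against 9.3% of all genes. In stromal barcodes of day 3 these counts were 15 of 22 and none of 6, against 5.31%. Within the FABP2 and APOA4 barcodes, 7 of 25 primary response genes were lower on day 7 (10.8% of all genes) and 2 were higher. Of the 6 heat shock genes none was lower there and 3 were higher. The share of all genes that were higher was not counted in that set.

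Over the 19 combinations of lineage and day with at least 50 barcodes, the genes whose log2 levels most resembled the summed members were PPP1R15A (r = 0.957), SERTAD1 (0.894), BTG2 (0.883), ZFP36 (0.873) and RHOB (0.870), among 12191 genes. With levels centred on each lineage, PPP1R15A (0.956) and SERTAD1 (0.926) stayed among the first 5, joined by ATF4, IER5 and KLF6. For single members the nearest genes were PPP1R15A and SERTAD1 for FOS, IFRD1 and KLF4 for FOSB, UBB and RHOB for JUN, and SERTAD1 and ZFP36 for JUNB. For JUND they were MID1IP1 and PMAIP1, for EGR1 PHLDA2 and CARD10, for ATF3 PPP1R15A and IER5, for IER2 IER5 and KLF4, and for DUSP1 RHOB and PPP1R15A. CREM stood apart, with BCAS2 (0.933) and TAGAP (0.921) as its nearest genes. Centred on each lineage, both nearest genes stayed for FOS, JUNB and DUSP1 and neither for EGR1, IER2, JUND and CREM, and FOSL2 (0.918) was then among the 2 nearest to CREM. Its r with the other 9 members had a median of 0.0391 and the 36 pairs without it a median of 0.770. Centred on each lineage, these medians were 0.628 and 0.847. The combinations share libraries and barcodes, so these values carry no test.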

How the data were processed

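Single cells of piglet ileum had been run on the 10x Chromium system, 1 library per day. The authors deposited UMI counts, not normalized and with no filter on barcodes, which Cell Ranger 3.1.0 (which aligns with STAR) had made on Sscrofa11.1 (susScr11 in the submitters' processing notes). The labels name kit version 3 and the methods version 2, and the series' design text names the cecum where the labels name the ileum.

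Barcodes with at least 1000 UMIs and 500 genes were kept, doublets were not removed, and UMIs were summed over the barcodes of a lineage and day. Levels are UMIs per 10000 summed UMIs with exact Poisson intervals, ratios carry conditional binomial and shares Clopper-Pearson intervals, all at 95%. Genes needed 50 UMIs over both groups, and a count of 0 was set to 3 in ratios. Shares at 1000 UMIs are hypergeometric expectations, for which no barcode was left out. Likeness is Pearson's r of log2(UMIs per 10000 + 0.1) over genes with at least 500 UMIs. Barcode correlations used log2(UMIs per 10000 + 1). Sums and intervals were computed with NumPy 2.4.6 and SciPy 1.17.1 (Python 3.11.15), and TMM factors came from edgeR 4.0.16 in R 4.3.3. The ratio code was tested on simulated data.

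The members and lists were chosen with earlier results of these data known. Named were the 10 members, genes of the lists, the 5 genes most like the sum and the 2 most like each member. HBB, a marker outside this rule, was named after its values were seen. NR4A1, PHGR1 and HBA1 were not matched by symbol and were not used here. Alternatives were other depth and marker minimums, barcodes of 1 lineage, a mitochondrial limit, averaging, totals, TMM, gene-defined subsets and subtraction of free RNA, the last ones chosen after seeing the data. No promoter or protein sequence was used here. Some listed genes are not reported here, and the counts leave them out.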

Additional observations from a re-analysis of the deposited data

Results flagged for a closer look

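The summed members moved opposite ways between lineages over the same interval in 4 cases. From day 0 to day 1 the log2 ratio was 0.57 in stromal barcodes, whereas it was -0.45 in B, -0.43 in T and -0.36 in epithelial barcodes. The stromal value thus exceeded these by 1.03, 1.01 and 0.933 on the log2 scale. From day 7 to day 14 the log2 ratio was 0.26 in T and -0.98 in B barcodes, a difference of 1.25. With 1 library per day these differences were not tested. In the same step MKI67 and TOP2A barcodes went from 19.8 to 44.2% of B barcodes, and CCR7 barcodes of the B lineage stood at 94.4 on day 7 and 69.9 on day 14.

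Barcodes that met none of the 4 lineage rules enter no comparison and also held the members, at 87.9, 69.3, 55.5, 96.0, 80.8 and 20.2 per 10000 UMIs on days 0, 1, 3, 7, 14 and 21. On days 0 to 14 these levels lay above the B and T levels of the same libraries, and on day 21 between them. These barcodes numbered 3537, 4875, 2617, 1532, 736 and 483 and were shallow, with medians of 1626.5 to 3055 UMIs. Their median mitochondrial share was 11.5% on day 7 and 5.01% on day 14. Myeloid genes summed to 19.98 per 10000 in them on day 1 and 7.51 on day 14, against 0.313 to 1.17 on the other days, and HBB stood at 52.3 on day 21. The NK and ILC genes KLRB1 and IL22 summed to 2.20, 3.09, 5.12, 2.52 and 5.74 on days 0 to 14 and 0.209 on day 21, with no common order with the members on days 0 to 14, and plasma lineage genes to 10.3 and 8.16 on days 14 and 21. CD22, CD79B and BANK1 summed to 2.71, 2.89, 3.81, 9.17 and 6.41 in barcodes of no lineage on days 0 to 14. In B barcodes they summed to 8.32, 9.37, 10.4, 14.3 and 13.3. Whether some barcodes of no lineage were B cells that missed the rule was not tested. What part the cells of these barcodes have in the levels was not tested.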

How the results depend on the processing

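The sign of the summed log2 ratio of the last day over day 0 was kept in all 39 alternatives, of which 21 moved the value beyond its narrow counting interval. In B barcodes the ratio of -2.50 became -2.45 without barcodes of more than 1 lineage, -2.41 with the marker minimum doubled, -2.47 as a mean over barcodes, -2.63 with TMM totals and -2.53 after subtraction of free RNA. Within CCR7 and MKI67+TOP2A barcodes it was -1.20 and -2.28. In T barcodes -1.59 became -1.24 without barcodes of more than 1 lineage, -1.69 with the minimums of UMIs and genes doubled, -1.52 with the marker minimum doubled, -1.42 as a mean over barcodes, -1.70 with TMM totals, and -1.16 and -1.96 within CD4 and CD8 barcodes. In epithelial barcodes -0.71 became -0.81 without barcodes of more than 1 lineage, -0.65 with the marker minimum doubled, -1.27 as a mean over barcodes, -0.98 with TMM totals and -0.067 within FABP2 and APOA4 barcodes. In stromal barcodes -1.92 became -2.17 without barcodes of more than 1 lineage and -1.82 with the marker minimum doubled. For single members the sign was kept in 365 of 380 alternatives over time, and the 15 others concern JUND, DUSP1, CREM and JUN in epithelial barcodes and CREM in stromal barcodes.

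Counts past 2-fold stayed within 1.5 times for 143 of 152 alternatives. Between lineages on day 0 and without barcodes of more than 1 lineage, 1 member in place of 0 was higher in T and in stromal than in B barcodes, and 2 in place of 1 were lower and 2 in place of 1 higher in epithelial barcodes. As a mean over barcodes, 1, 4 and 1 members were higher in T, epithelial and stromal barcodes. With TMM totals 2 were lower in epithelial and 5 in stromal barcodes. Barcodes of at most 50 in place of 100 UMIs held the members at 51.9 on day 1 and 23.7 on day 14. Without thinning, the share with any member was 99.4 and 89.8% in B, 99.0 and 87.5% in T, 99.4 and 99.2% in epithelial and 94.5 and 88.8% in stromal barcodes, on day 0 and the last day. Of the 5 genes most like the sum, 2 stayed after centring. The cause of these moves was not tested. No paired analysis was possible because each day is 1 library.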
